A study of Danio rerio with 8 samples.

Results

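De novo nucleotide synthesis builds purine and pyrimidine bases from amino acids, bicarbonate, one-carbon units and phosphoribosyl pyrophosphate (PRPP), an activated ribose phosphate. In the purine route the enzymes encoded by ppat, gart, pfas, paics, adsl and atic assemble inosine monophosphate (IMP), which impdh2 and gmps turn into GMP, while adenylosuccinate synthases and adsl turn it into AMP. In the pyrimidine route cad, dhodh and umps lead to UMP. Dividing cells and cells that make much ribosomal RNA draw heavily on these routes, and in mammalian cells MYC proteins bind many of these genes, while signalling downstream of AKT and mTORC1 acts on CAD and on the supply of PRPP and one-carbon units.

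The genes described here are the 10 rows named ppat, gart, pfas, paics, adsl, atic, impdh2, gmps, cad and umps, out of 14781 gene rows in the deposited count table, and all 10 were among the 12126 genes tested. They were named by symbol. The data are RNA-seq of sorted tumour cells from transgenic zebrafish. One group, called myrAKT, is 4 libraries from ganglioneuromas of fish that carry a membrane-anchored AKT kinase, sorted for mCherry. The other, called MYCN, is 4 libraries from neuroblastomas of fish that carry MYCN, sorted for EGFP. Genotype, tumour type and sorting colour went together in every sample, so they cannot be told apart. The promoters of the transgenes, the age and strain of the fish and the number of fish behind a sample are not stated in the labels, so a p-value here speaks to the spread among these libraries, which may in part be technical.

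Counts summed to between 25948623 and 43083220 per myrAKT library and between 36984845 and 55827123 per MYCN library. Markers of the sympathetic lineage, from which both tumours arise, were present in every library, at a summed 2121 to 4625 CPM (counts scaled by library size and TMM factors) in myrAKT and 9629 to 11472 CPM in MYCN samples over 12 genes. In MYCN 4 several of the genes described below were far from the other MYCN libraries. The values of adsl, impdh2, impdh1a, adssl, ctps1a, hprt1, rrm2 and tyms are given both with and without it. Log2 fold changes are myrAKT minus MYCN, and a gene is said to have risen or fallen where edgeR's quasi-likelihood test gave a Benjamini-Hochberg adjusted p under 0.05 over all genes tested. By this rule 76.0% of all genes tested changed, 38.4% lower and 37.6% higher in myrAKT, so a passing gene is by itself common here. In sorted but mixed samples, fewer cells of one type and less RNA per cell cannot be told apart.

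Most genes of de novo synthesis were lower in the myrAKT libraries with TMM factors. Under these 8 of the 10 genes fell and none rose, where 38.4% of all genes tested fell and 37.6% rose. The other 2, adsl and impdh2, did not pass. With library totals 7 fell and 1 rose, where 27.6% of all genes tested fell and 45.4% rose. With libraries scaled on the catecholamine genes dbh and th 4 fell and 3 rose, where 8.46% of all genes tested fell and 68.6% rose. With TMM factors the median log2 fold change of the 10 genes was -1.67, against -0.04 over all genes tested. In TMM-scaled CPM every myrAKT library lay below every MYCN library for the 8 genes that fell with TMM factors, which held for 36.3% of all genes tested. By the same measure no gene of the 10 had every myrAKT library above every MYCN library, which held for 36.2% of all genes tested. The 10 genes together took 0.0884 ± 0.00610% of all counts in myrAKT and 0.196 ± 0.00968% in MYCN (SD, n = 4). Cad alone took 0.0350 ± 0.00284% in myrAKT and 0.0886 ± 0.00691% in MYCN. Such a share amounts to scaling by library totals, so it depends on the other RNA in a library.

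Markers of other cell types were higher in the same myrAKT libraries, and their part in the differences of the 10 genes was not tested. The counts that follow are with TMM factors, under which 37.6% of all genes tested rose and 38.4% fell. Of 12 leukocyte genes 12 rose, with a sum of 18254 to 22668 CPM in myrAKT samples and 448 to 1431 CPM in MYCN samples. Of 9 lymphocyte genes 8 rose and 1 fell, with a sum of 401 to 626 CPM in myrAKT samples and 39.3 to 68.3 CPM in MYCN samples, and pax5 had no count in any MYCN library. Of 8 erythroid genes 8 rose, with a sum of 4293 to 10269 CPM in myrAKT samples and 35.5 to 151 CPM in MYCN samples. Of 8 endothelial genes 8 rose, summing to 333 to 508 CPM in myrAKT samples and 5.71 to 15.7 CPM in MYCN samples, and of 5 glial genes 3 rose and 1 fell.

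**Figure D1:**
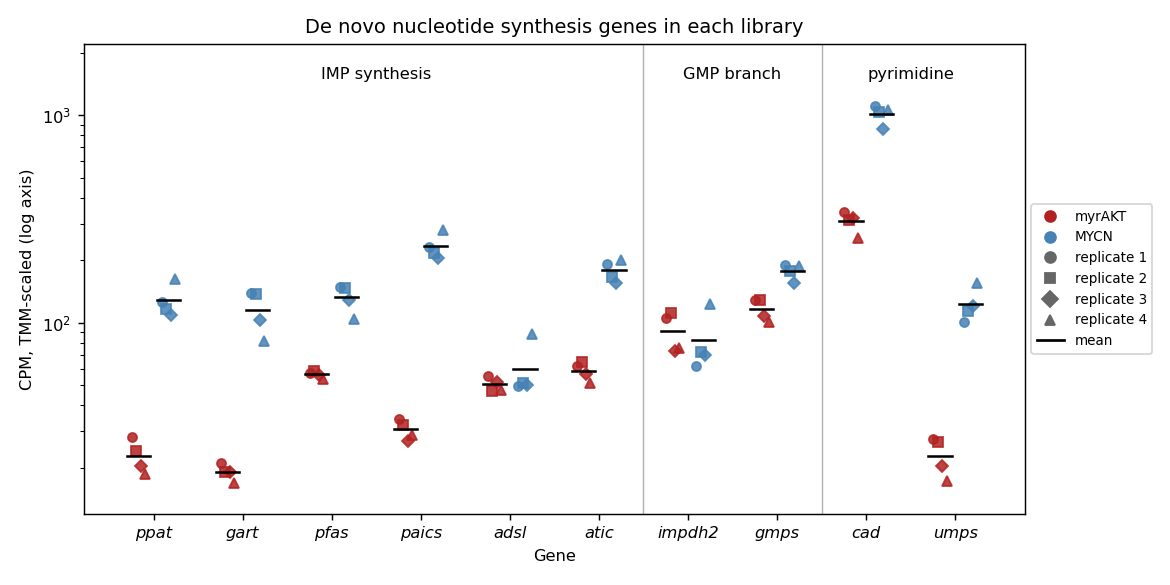
CPM (TMM-scaled, log axis) of the 10 genes in each library, with myrAKT in red and MYCN in blue, a marker shape per replicate number and a black bar at the mean of 4 libraries. For 8 genes the groups are apart, whereas for adsl and impdh2 they overlap, and MYCN replicate 4 is the highest MYCN point for 6 genes.

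IMP synthesis begins with ppat, the amidotransferase that commits PRPP to purines. It had 28.0, 24.1, 20.4 and 18.7 CPM in myrAKT libraries 1 to 4, against 125, 116, 109 and 161 CPM in MYCN libraries 1 to 4. The groups were far apart, with a log2 fold change of -2.49 ± 0.18 (SE, edgeR test, adjusted p = 1.4e-06), which placed ppat among the lowest 6.80% of all genes tested. Gart, which encodes a protein for 3 separate steps in vertebrates including a transfer of a formyl group, had 21.0, 19.2, 19.0 and 16.8 CPM in myrAKT samples and 139, 137, 103 and 82.0 CPM in MYCN samples. Its spread was wider in MYCN, where libraries 3 and 4 were the lowest, but even the lowest MYCN value was several times the highest myrAKT value (log2 fold change -2.60 ± 0.19; adjusted p by edgeR = 1.5e-06).

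Paics, which carries carboxylation and the joining of aspartate, showed the largest difference of the 10 genes. It had 34.5, 32.2, 26.9 and 28.9 CPM in myrAKT samples, against 232, 217, 205 and 280 CPM in MYCN samples. The log2 fold change was -2.93 ± 0.15 (edgeR adjusted p = 1.8e-07), so paics was 7.63-fold higher in MYCN, and 4.60% of all genes tested had a fold change as low or lower. In the RefSeq gene table of assembly GRCz12tu, paics and ppat are neighbours whose spans overlap, and atic overlaps fn1b. The counts were made on GRCz10, and the labels do not give the annotation or strand setting of the counting. How reads from such shared stretches were counted is therefore not known.

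Pfas, the synthase that adds the second nitrogen from glutamine, and atic, which closes the second ring after the last formyl transfer, fell less. Pfas ranged from 53.7 to 58.5 CPM in myrAKT samples and from 105 to 148 CPM in MYCN samples (log2 fold change -1.23 ± 0.13; adjusted p by edgeR = 1.8e-05). Its myrAKT libraries were the most alike of any of the 10 genes, with a coefficient of variation of 3.54%. Atic ranged from 51.3 to 64.5 CPM in myrAKT samples and from 156 to 200.03 CPM in MYCN samples (log2 fold change -1.61 ± 0.13; adjusted p by edgeR = 2.7e-06). Of the 6 genes of IMP synthesis 5 fell, with a median of -2.05 on the log2 scale.

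Adsl, the lyase that acts both in IMP synthesis and in the step from IMP to AMP, was the exception among them. It had 55.6, 47.0, 51.7 and 47.3 CPM in myrAKT samples, against 49.8, 51.4, 50.3 and 88.5 CPM in MYCN samples. Apart from MYCN 4 the MYCN libraries lay within the range of the myrAKT libraries. The log2 fold change was -0.25 ± 0.20 (edgeR adjusted p = 0.268), and without MYCN 4 it was -0.01 (edgeR adjusted p = 0.901). With library totals it turned to 0.16 without passing.

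The GMP branch held the other exception. Impdh2, the IMP dehydrogenase isozyme that predominates in dividing mammalian cells, had 105, 111, 72.8 and 75.2 CPM in myrAKT samples, against 62.1, 72.6, 70.2 and 123 CPM in MYCN samples. The groups overlapped, and the log2 fold change was 0.15 ± 0.24 (edgeR adjusted p = 0.581). Without MYCN 4 it was 0.41 (edgeR adjusted p = 0.055), and with library totals impdh2 rose (log2 fold change 0.55, edgeR adjusted p = 0.028). Within myrAKT the 2 libraries with more impdh2, 1 and 2, were also those with more cell-cycle RNA, at a summed 2264 and 2402 CPM over 17 genes against 1507 and 1342 CPM in libraries 3 and 4, and with more RNA of erythroid markers, at 10173 and 10269 CPM against 4293 and 5166 CPM over 8 genes. Leukocyte markers (22668 and 22425 against 18946 and 18254 CPM) and lymphocyte markers (618 and 626 against 433 and 401 CPM) separated the same libraries. So did glial markers (85.8 and 93.1 against 79.8 and 78.1 CPM). The other marker sums separated them in the opposite direction. These were endothelial (333 and 334 against 508 and 454 CPM), kidney tubule (2619 and 1125 against 4145 and 3345 CPM) and catecholamine markers (2121 and 2936 against 3840 and 4625 CPM). In MYCN the library with the most impdh2, MYCN 4, had the highest cell-cycle and leukocyte sums, at 899 and 1431 CPM, and the lowest lymphocyte and erythroid sums, at 39.3 and 35.5 CPM. The part of these cells or of cycling in the impdh2 level was not tested. In TMM-scaled CPM the highest myrAKT library was 1 or 2 for 10 of the 10 genes, as for 52.2% of all genes tested. Having its highest library there therefore did not set impdh2 apart.

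Gmps, which aminates xanthosine monophosphate to GMP, fell by the smallest amount among the genes that passed. It had 128, 129, 108 and 101 CPM in myrAKT samples, against 190.01, 176, 156 and 188 CPM in MYCN samples. In TMM-scaled CPM the groups did not overlap (log2 fold change -0.61 ± 0.13, adjusted p by edgeR = 0.0015). The call ended with library totals (log2 fold change -0.23, edgeR adjusted p = 0.112), and gmps was higher with libraries scaled on dbh and th, at 0.93 on the log2 scale, where the median of all genes was 1.45.

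The other IMP dehydrogenase genes did not behave like impdh2. Impdh1b had 67.1, 66.1, 62.3 and 58.6 CPM in myrAKT samples, against 392, 441, 449 and 405 CPM in MYCN samples (log2 fold change -2.73 ± 0.11; adjusted p by edgeR = 8.2e-08). Impdh1a had 10.3, 13.8, 11.7 and 11.4 CPM in myrAKT samples, against 55.8, 58.6, 55.1 and 17.5 CPM in MYCN samples, where library 4 was again apart (log2 fold change -1.98 ± 0.34; adjusted p by edgeR = 4.4e-04, and -2.27 without MYCN 4). Of all reads on the 3 genes, impdh2 took 54.3 ± 4.25% in myrAKT, between 49.6% and 58.2%, and 14.9 ± 5.12% in MYCN, between 12.2% and 22.6% (SD, n = 4). This share is of reads and not of molecules, since the genes differ in length, and it does not depend on how libraries are scaled against each other. The 95% Wilson intervals of single libraries reached at most 1.45 percentage points from the value and cover counting error only. The share was computed after the values of the 3 genes were seen and has no test.

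**Figure D2:**
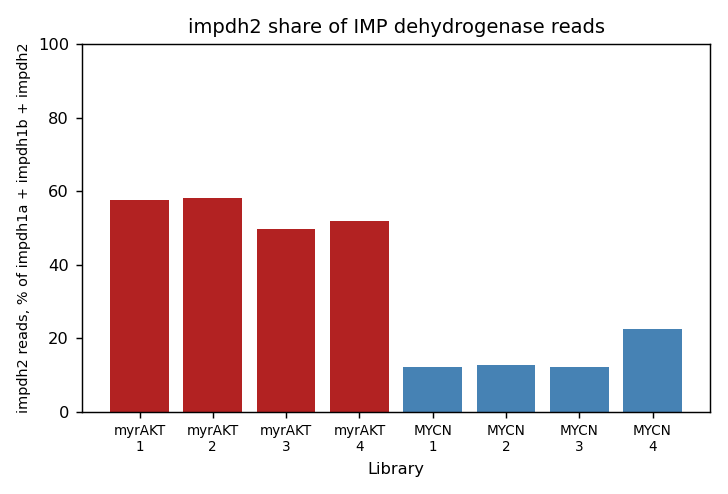
Reads of impdh2 as percent of the reads of impdh1a, impdh1b and impdh2 together (y axis) in each library (x axis), with myrAKT in red and MYCN in blue. The 4 myrAKT libraries lie between 49.6% and 58.2% and the 4 MYCN libraries between 12.2% and 22.6%, MYCN 4 being the highest of them.

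Both pyrimidine genes of the 10 fell with TMM factors, as did dhodh. Cad, which encodes the protein for the opening 3 reactions of the route, had 343, 311, 320.1 and 256 CPM in myrAKT samples, against 1109, 1040, 856 and 1055 CPM in MYCN samples. Umps, whose protein makes UMP from orotate, had 27.5, 26.5, 20.4 and 17.2 CPM in myrAKT samples, against 100.3, 114, 120 and 155 CPM in MYCN samples. For each of them the lowest MYCN library was more than the highest myrAKT library, and the log2 fold changes were -1.72 ± 0.14 for cad (edgeR adjusted p = 3.1e-06) and -2.42 ± 0.20 for umps (edgeR adjusted p = 3.1e-06). Dhodh, the mitochondrial enzyme between them, had 13.2, 13.1, 13.5 and 12.7 CPM in myrAKT samples, against 44.1, 41.7, 39.2 and 49.5 CPM in MYCN samples (log2 fold change -1.73 ± 0.12; adjusted p by edgeR = 9.9e-07). After scaling on dbh and th, umps still fell (-0.85), whereas cad (-0.18, edgeR adjusted p = 0.635) and dhodh (-0.24, edgeR adjusted p = 0.504) did not pass.

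Ratios of 2 genes within a library, which no library scaling can change, were compared for 4 pairs by exact two-sided permutation tests over the 8 samples, with Benjamini-Hochberg adjustment over the 4. The smallest p this design allows is 0.0286. The log2 ratio of cad to umps was 3.64, 3.55, 3.97 and 3.90 in myrAKT and 3.47, 3.19, 2.84 and 2.76 in MYCN. Every myrAKT library was above every MYCN library, with a difference of 0.70 on the log2 scale (exact p = 0.0286, adjusted p = 0.0571, above the threshold). The log2 ratio of cad to dhodh averaged 4.54 ± 0.151 in myrAKT and 4.54 ± 0.125 in MYCN (SD, n = 4; exact p = 1), a difference well inside the spread between libraries. The log2 ratio of ppat to hprt1, the salvage enzyme that uses the same PRPP, averaged -1.47 ± 0.0965 in myrAKT and -1.04 ± 0.191 in MYCN (SD, n = 4), with no overlap, a difference of -0.43 (exact p = 0.0286, adjusted p = 0.0571). Impdh2 and adss are each 1 of the genes for the first steps from IMP to GMP and to AMP. Their log2 ratio averaged 1.51 ± 0.669 in myrAKT and 1.41 ± 0.807 in MYCN (exact p = 0.914). Its single values ran from 0.86 to 2.12 in myrAKT and from 0.69 to 2.57 in MYCN. This ratio leaves out impdh1a and impdh1b, which fell with TMM factors, adssl1, which rose, and adssl, which did not pass. It therefore does not give the balance between the branches.

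**Figure D3:**
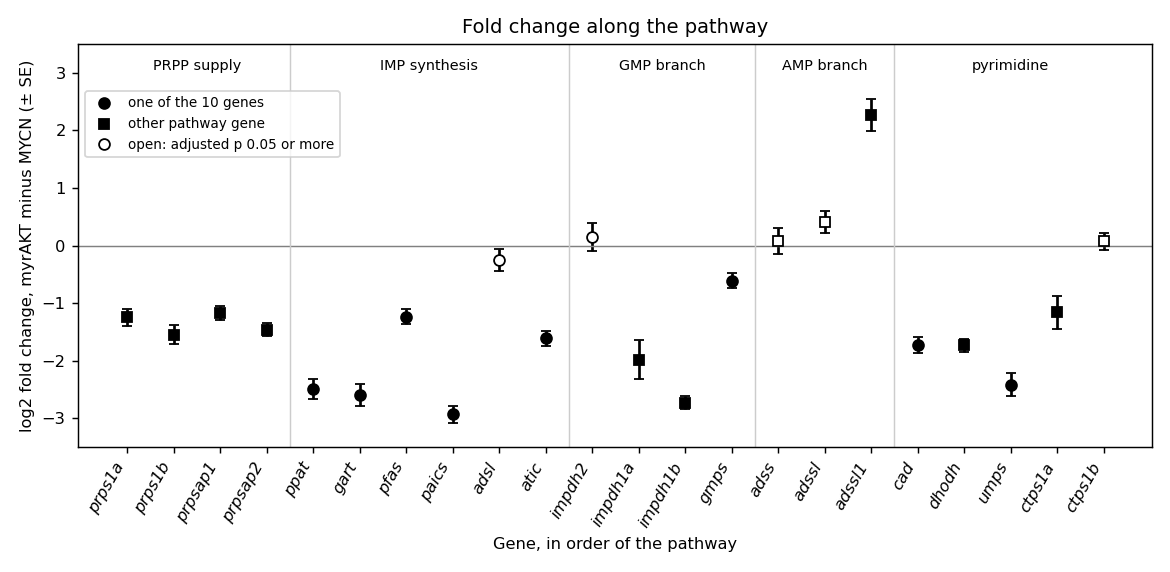
Log2 fold change, myrAKT minus MYCN with TMM factors (y axis, ± SE), of genes in pathway order (x axis); circles are the 10 genes, squares other pathway genes, and open symbols had edgeR adjusted p of 0.05 or more. PRPP supply, most of IMP synthesis and cad, dhodh and umps lie below 0, between -1.17 and -2.93, while adsl, impdh2, adss, adssl and ctps1b lie near 0 and adssl1 at 2.27.

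Upstream of ppat, the genes of PRPP supply were lower in myrAKT under TMM factors. The 4 tested were prps1a and prps1b, which encode PRPP synthetases, and prpsap1 and prpsap2, which encode associated proteins. All 4 fell with TMM factors, as did 38.4% of all genes tested. All 4 also fell with library totals, as did 27.6% of all genes. None of the 4 passed after scaling on dbh and th, whereas ppat still fell (-0.92, edgeR adjusted p = 0.011). That scaling left 8.46% of all genes lower and 68.6% higher. Prps1a ranged from 91.1 to 107 CPM in myrAKT samples and from 203 to 293 CPM in MYCN samples (log2 fold change -1.25 ± 0.14; adjusted p by edgeR = 3.0e-05). Prps1b was at -1.55, prpsap1 at -1.17 and prpsap2 at -1.46 on the log2 scale. The groups did not overlap for any of the 4.

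None of the adenylosuccinate synthase genes of the AMP branch fell, and those of the step to CTP differed from each other. Of 8 other de novo enzymes tested, 4 fell (dhodh, impdh1a, impdh1b and ctps1a), 1 rose and 3 did not pass with TMM factors. Under the same factors 38.4% of all genes tested fell and 37.6% rose. After scaling on dbh and th 1 fell and 4 rose, where 8.46% of all genes tested fell and 68.6% rose. The adenylosuccinate synthase gene adssl1, now named adss1 and of the muscle type in mammals, had 40.2, 48.8, 49.2 and 51.9 CPM in myrAKT samples, against 10.1, 6.99, 6.43 and 15.9 CPM in MYCN samples (log2 fold change 2.27 ± 0.27; adjusted p by edgeR = 4.2e-05). The row adss, taken here as the present adss2, had 25.4, 25.7, 36.6 and 41.3 CPM in myrAKT samples, against 38.5, 32.6, 29.5 and 20.8 CPM in MYCN samples. Its groups overlapped, at 0.09 ± 0.23 on the log2 scale (edgeR adjusted p = 0.743), and adssl was at 0.41 ± 0.19 (edgeR adjusted p = 0.068). Without MYCN 4 adssl passed, at 0.60 (edgeR adjusted p = 0.0021). Ctps1a, one of the CTP synthases, ranged from 44.3 to 61.0 CPM in myrAKT samples and from 84.7 to 203 CPM in MYCN samples, with its highest value in MYCN 4 (log2 fold change -1.16 ± 0.29; adjusted p by edgeR = 0.0041, and -0.77 without MYCN 4). After scaling on dbh and th it was at 0.41 without passing. Its paralogue ctps1b stayed between 17.9 and 26.1 CPM in myrAKT samples and between 19.6 and 21.4 CPM in MYCN samples (log2 fold change 0.07 ± 0.14; adjusted p by edgeR = 0.653).

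Salvage enzymes rebuild nucleotides from free bases and nucleosides. Of 18 tested, 11 fell, 4 rose and 3 did not pass with TMM factors, against 3 lower and 8 higher with libraries scaled on dbh and th. Over all genes tested 38.4% fell and 37.6% rose with TMM factors. Scaled on dbh and th, 8.46% of all genes fell and 68.6% rose. Hprt1, which recycles hypoxanthine and guanine, averaged 62.8 ± 9.66 CPM in myrAKT samples and 269 ± 89.0 CPM in MYCN samples (SD, n = 4; log2 fold change -2.10 ± 0.23, edgeR adjusted p = 1.9e-05, and -1.85 without MYCN 4). The uridine-cytidine kinases uck2b and uck2a were at -2.80 and -2.29 on the log2 scale. Kinases of deoxynucleosides, which serve DNA precursors, were split. Those that rose were tk1, the cytosolic thymidine kinase, at 36.4 ± 9.98 CPM in myrAKT samples and 4.64 ± 1.21 CPM in MYCN samples, and dck, deoxycytidine kinase, at 25.1 ± 7.37 CPM in myrAKT samples and 2.64 ± 1.402 CPM in MYCN samples. The mitochondrial kinases tk2 (log2 fold change -0.79, edgeR adjusted p = 0.0075) and dguok (-1.94, edgeR adjusted p = 2.5e-06), named after their values were seen, fell.

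Most genes on the list for deoxynucleotide supply did not follow the 10 genes. Of 7 tested, 4 rose, none fell and 3 did not pass with TMM factors and with library totals. With TMM factors those that did not pass were all below 0. They were rrm2b at -0.50 (edgeR adjusted p = 0.054), dctpp1 at -0.88 (edgeR adjusted p = 0.071) and samhd1 at -0.06 (edgeR adjusted p = 0.895). Of these, dctpp1 and samhd1 encode enzymes that break deoxynucleotides down, so the list is not of supply alone. Of all genes tested, 37.6% rose with TMM factors and 45.4% with library totals. Rrm2, the inducible subunit of ribonucleotide reductase, had 214, 256, 135 and 134 CPM in myrAKT samples, against 20.5, 19.4, 21.4 and 37.3 CPM in MYCN samples. Its log2 fold change was 2.91 ± 0.30 (edgeR adjusted p = 1.3e-05), and 3.17 without MYCN 4. Tyms, thymidylate synthase, was at 2.24 ± 0.37 on the log2 scale (edgeR adjusted p = 3.5e-04), and at 2.73 without MYCN 4. In the same libraries 16 of 17 cell-cycle genes rose, with mki67 at 319 ± 104 CPM in myrAKT samples and 50.8 ± 3.09 CPM in MYCN samples. Thus with TMM factors 8 of the 10 de novo genes were lower in the libraries in which replication and division genes were higher. With library totals 7 of the 10 fell and 1 rose, where 27.6% of all genes fell and 45.4% rose. Scaled on dbh and th 4 fell and 3 rose, where 8.46% of all genes fell and 68.6% rose. The part of the blood-cell RNA given above in these levels was not tested.

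Enzymes of the one-carbon pool, which feeds the formyl groups that gart and atic use, passed in each direction at shares near those of all genes. Of 9 tested, 4 fell, 4 rose and 1 did not pass with TMM factors, near the 38.4% and 37.6% of all genes. None fell and 5 rose after scaling on dbh and th, against 68.6% of all genes that rose. Mthfd1b, of the cytosolic folate enzyme family that makes the formyl donor, averaged 59.1 ± 6.199 CPM in myrAKT samples and 253 ± 32.4 CPM in MYCN samples (log2 fold change -2.10 ± 0.14; adjusted p by edgeR = 7.8e-07). Aldh1l1, which consumes that donor, had 97.7, 76.5, 111 and 98.7 CPM in myrAKT samples, against 1.30, 1.91, 2.61 and 1.85 CPM in MYCN samples (log2 fold change 5.64 ± 0.23; adjusted p by edgeR = 8.2e-08). Shmt1, a serine hydroxymethyltransferase, rose by 2.62 on the log2 scale. In the same myrAKT libraries the kidney tubule markers, of which 7 of 8 rose, summed to 1125 to 4145 CPM, against 9.40 to 33.5 CPM in MYCN samples; their part in the aldh1l1 and shmt1 levels was not tested.

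Of 13 nucleotide kinase genes 6 fell and 4 rose with TMM factors, and 1 fell and 8 rose with libraries scaled on dbh and th, shares near those of all genes under the same scaling. Nme4 and nme6, of the nucleoside diphosphate kinase family, were at -4.32 and -2.04 on the log2 scale, whereas the adenylate kinase genes ak1 and ak3 were at 3.92 and 1.93. Of 15 breakdown genes 9 rose and 3 fell with TMM factors, against 12 and 1 scaled on dbh and th. Of all genes tested, 37.6% rose and 38.4% fell with TMM factors. Scaled on dbh and th, 68.6% of all genes rose and 8.46% fell. Ampd3b, an AMP deaminase, averaged 80.9 ± 14.5 CPM in myrAKT samples and 7.41 ± 3.31 CPM in MYCN samples, and nt5e, a surface nucleotidase, 14.8 ± 4.96 CPM in myrAKT samples and 1.97 ± 0.249 CPM in MYCN samples. Uox, urate oxidase, and dpydb, a dihydropyrimidine dehydrogenase, went the other way, at -5.93 and -1.85 on the log2 scale, with uox at 0.120 ± 0.0944 CPM in myrAKT samples and 6.82 ± 2.09 CPM in MYCN samples. Of 6 nucleoside and nucleobase transporter genes 4 rose and 2, slc29a1a and slc29a4, fell with TMM factors. With libraries scaled on dbh and th 4 rose and none fell, a share of risen genes near the 68.6% of all genes tested.

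**Figure D4:**
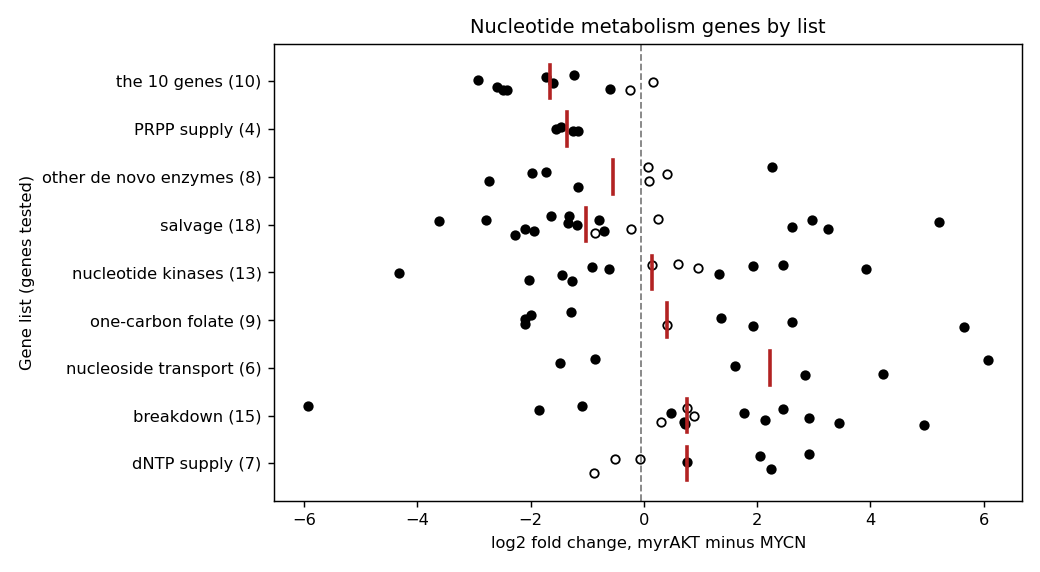
Log2 fold change, myrAKT minus MYCN with TMM factors (x axis), of each tested gene in 9 lists of nucleotide metabolism (y axis, with the number tested); filled points had edgeR adjusted p under 0.05, the red bar is the list median and the dashed line the median of all genes tested. The 10 genes have a median of -1.67 and PRPP supply -1.35. The deoxynucleotide (dNTP) supply list, which also holds dctpp1 and samhd1 of dNTP breakdown, has 0.75. After scaling on dbh and th the median of the 10 genes was -0.13 and that of all genes 1.45.

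The 10 genes also differed in how they varied within a group. In TMM-scaled CPM the highest myrAKT library was 1 or 2 for 10 of the 10 genes, as for 52.2% of all genes tested. The lowest myrAKT library was 4 for 7 of the 10, as for 33.3% of all genes. In MYCN library 4 was the highest for ppat, paics, adsl, atic, impdh2 and umps and the lowest for gart and pfas. Of all genes tested, 38.9% were highest and 38.6% lowest there. These orders depend on the scaling, and the TMM factor was lowest in MYCN 4, at 0.747, and highest in myrAKT 4, at 1.22. As a share of all counts, the 10 genes together were lowest in MYCN 4, at 0.182%, against 0.196% to 0.203% in the other MYCN libraries. The order for single genes was not compared under other scalings. The summed cell-cycle RNA was 899 CPM in MYCN 4 and 487 to 498 CPM in the other 3, and the leukocyte markers summed to 1431 CPM in MYCN 4 and to 448 to 806 CPM in the other 3. Within myrAKT the catecholamine markers summed to 2121 and 2936 CPM in libraries 1 and 2 and to 3840.02 and 4625 CPM in libraries 3 and 4. The part of these markers in the order of the libraries was not tested.

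The size of the differences depends on what the libraries are scaled to. Scaling on dbh and th, which themselves were at -1.42 and -1.33 with TMM factors, raised the median of all genes to 1.45 and that of the 10 genes to -0.13. Under it ppat (-0.92), gart (-1.09), paics (-1.39) and umps (-0.85) still fell, cad (-0.18), atic (-0.08) and pfas (0.27) did not pass, and adsl (1.28), impdh2 (1.73) and gmps (0.93) rose. A change of scaling moves all genes nearly alike, so it alters the calls but hardly the place of the 10 genes among all genes.

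**Figure D5:**
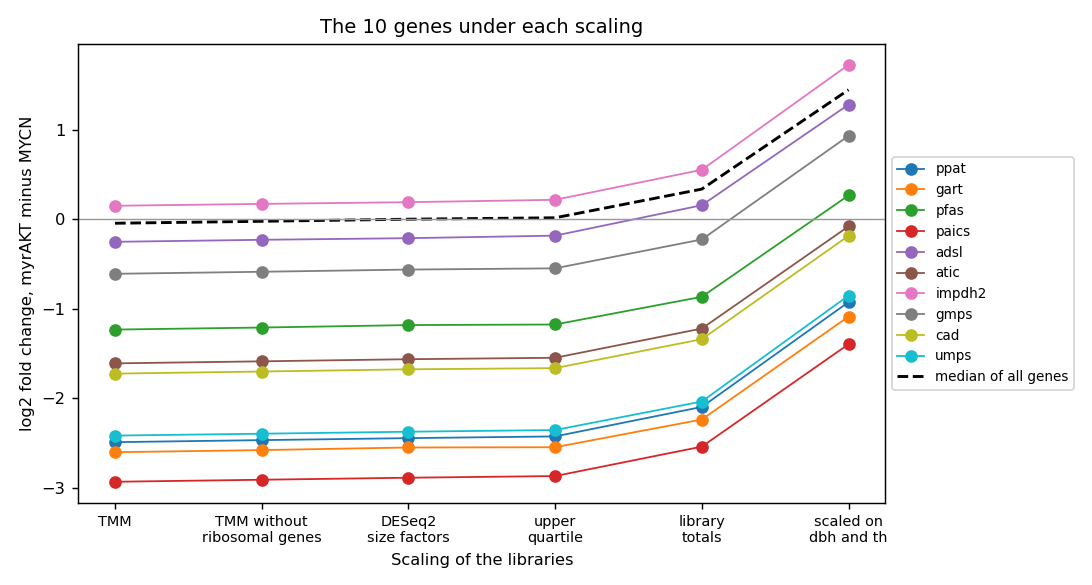
Log2 fold change, myrAKT minus MYCN (y axis), of each of the 10 genes under 6 ways of scaling the libraries (x axis), with the median of all genes tested as a dashed line. The first 4 scalings differ little, library totals raise every gene, and scaling on dbh and th raises the median of all genes to 1.45, with ppat, gart, paics and umps at -0.85 or lower and impdh2 the highest of the 10.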

How the data were processed

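RNA-seq counts were analysed for 8 samples, 4 per group, grouped by their titles. The deposited file is 1 table of raw counts by gene symbol. The submitters' processing notes name GRCz10, TopHat2 2.1.1, HTSeq 0.6.1, edgeR, SAMtools 1.5, Trim Galore 0.4.4 and FastQC 0.11.5; annotation and strand setting are not given there. Within groups, 12 pairs of libraries differed by a chi-square per degree of freedom of 20.2 to 264, above counting noise, so none was taken as a library deposited more than once; this does not show that they came from separate tumours.

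Genes were filtered with filterByExpr (12126 kept), scaled with TMM and tested with the edgeR 4.0.16 quasi-likelihood F test (robust) in R 4.3.3, two-sided, adjusted over all genes, threshold 0.05. SEs derive from fold change and F. Ratios used counts plus 0.5. Of 205 symbols on the lists, 174 have a row and 7 more a row by an earlier name in a RefSeq table of GRCz12tu; adss, a synonym of adss2 and of adssl there, was taken as adss2, since adssl has its own row. Members and lists were chosen with earlier results of these data known. Named genes are the 10, the PRPP and other de novo genes, up to 2 per direction with the smallest adjusted p from each other pathway list and hprt1, and the 2 most abundant per marker list with mki67, dbh and th; some of these 61 are given by list only. The fit was tested on simulated data. Intervals cover counting error only. Alternatives were other scalings, filters, DESeq2 1.42.0, limma-voom 3.58.1, a replicate block and leaving out each library.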

Additional observations from a re-analysis of the deposited data

Results flagged for a closer look

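In a group of 4 libraries, a value was marked where its gap to the nearest other library was over 0.829 of the group's range. For normally distributed values chance meets this rule in about 1 of 20 groups. Whether CPM have that shape was not tested, and the genes share libraries, so the groups are not independent. Of 122 groups of libraries examined (61 genes), 11 were marked, all in MYCN, and 9 of them because of MYCN 4. The values are TMM-scaled CPM, and MYCN 4 had the lowest TMM factor of all libraries, 0.747, which raises its CPM relative to library totals. The rule was not applied under other scalings. MYCN 4 was the highest MYCN library for adsl (88.5 CPM, next 51.4), adssl (164 CPM, next 108), ctps1a (203 CPM, next 93.6), hprt1 (402 CPM, next 232), ak3 (19.0 CPM, next 10.5), rrm2 (37.3 CPM, next 21.4), tyms (21.1 CPM, next 8.43) and pcna (195 CPM, next 59.6). It was the lowest for impdh1a (17.5 CPM, next 55.1). MYCN 2 was the lowest for ctps1b (19.6 CPM, next 21.2), and MYCN 3 the highest for the glial marker mbpb (36.8 CPM, next 25.1).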

How the results depend on the processing

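The 8 genes that fell kept their call with each of the 8 libraries left out in turn and under 8 of the 10 other settings; library totals ended that of gmps, and scaling on dbh and th left 4. Over all genes, between 8838 and 9988 passed with a library left out and between 8514 and 9712 under other settings, against 9220. Of those, 62.2% were higher in myrAKT with library totals and 89.0% (8319 higher, 1026 lower) scaled on dbh and th, against 49.5%.

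With library totals the median of all genes was 0.34, and 27.6% of all genes tested fell and 45.4% rose. Of the 10 genes 1 rose, 3 other de novo enzymes rose, 1 transporter gene fell, and adsl was at 0.16. Scaled on dbh and th, 8.46% of all genes tested fell and 68.6% rose. Of the 10 genes 4 fell and 3 rose. Of 8 other de novo enzymes 1 was lower and 4 higher, of 13 kinases 1 and 8, and of 18 salvage genes 3 and 8. Under the same scaling 0 PRPP genes, 0 one-carbon genes, 0 transporters and 1 breakdown gene were lower. Values that turned under it were adsl 1.28, gmps 0.93, pfas 0.27, ctps1a 0.41, prps1a 0.28, prpsap1 0.35, prpsap2 0.028, slc29a4 0.48 and th 0.052. Other de novo enzymes higher were 2 with upper-quartile factors and 2 with CPM of at least 1 in 4 libraries.

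The replicate block left the 8 genes lower and moved the calls to 8816; it gave 1 dNTP gene lower. Same-numbered libraries had correlations of -0.13, 0.01, 0.12 and -0.18, so the numbers were not taken as pairs. With a library left out, 0 to 2 dNTP genes were lower and 1 to 2 other de novo enzymes higher. The difference between groups, myrAKT minus MYCN, in the log2 ratio of cad to dhodh ran from -0.047 to 0.074. That in the log2 ratio of impdh2 to adss ran from -0.15 to 0.47. The log2 fold change of adss ran from -0.070 without MYCN 4 to 0.21 without MYCN 1. That of ctps1b ran from -0.026 without myrAKT 2 to 0.16 without myrAKT 4. Leaving out 1 library cannot give a ratio an exact p below 0.0571, nor the block one below 0.125. The cause of these shifts was not tested.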
